A study of Tribolium castaneum with 8 samples.

Results

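The label NBs II/INPs/newborn neurons_2? was carried by 1649 of 31573 annotated cells, which made it the fifth most frequent of 10 labels. Its members were chosen by that label in the deposited cell table, question mark included. Of the members, 1344 came from the red flour beetle Tribolium castaneum and 305 from Drosophila. The beetle members were split by library through the number at the end of each barcode, and the fly members were kept as 1 pooled set.

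The study sorted live, fluorescent cells from homogenised beetle embryos aged 35 to 50 hours and sequenced single-cell RNA with the 10x Genomics droplet method. A Gal4 enhancer trap insertion drove turbo GFP, so the cells a library could hold depended on which cells held turbo GFP and on the sorting gate. Whether the trap was active in each sorted cell is not shown here. The 8 beetle libraries form 1 untreated group of 1 genotype, turbo GFP, and the labels give each library a strain name of its own, in sequence from GoGal41519 to GoGal41526. The design text speaks of a single line, so whether these names mark different strains is in doubt. If they do, library 8 and strain cannot be told apart. Whether each library had its own embryo collection is not stated in the labels, so p-values over libraries measure only the spread between these samples and may reflect technical variation. For the fly cells, stage, genotype and isolation are not given here.

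A neuroblast is a stem cell of the insect nervous system that divides unequally, renewing itself and budding off a smaller daughter. In Drosophila, a type I neuroblast makes ganglion mother cells, each of which divides once more into neurons or glia. A type II neuroblast instead makes intermediate neural progenitors (INPs), which themselves divide several times and so enlarge the lineage. Newborn neurons are the postmitotic end of either route, and the RNA-binding protein encoded by elav is the usual marker of that state. The described label names type II stem cells and progenitors beside newborn neurons, and the question mark is the authors' own. The name does not say which of these a cell is, or from which route its newborn neurons come.

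The label could not be checked against elav, since the table used here holds a barcode, a label and a species for each cell and no expression values. For the same reason no gene is named as a result here. The libraries held from 77 cells in library 3 to 7639 in library 8, and the fly set held 10425 cells. The main results are given with and without library 8, a choice made with earlier results of these data known. Library 8 stood apart from the others in several measures. Intervals are exact (Clopper-Pearson) 95% binomial intervals and cover counting error only. Shares of sorted cells do not tell more cells of a type in the embryo from better recovery in the sort. Between beetle libraries 72 barcodes of 16 bases occurred in 2 cells, 15 of these pairs had the same label, and 7 pairs held 1 member each. The most frequent labels would give some pairs of the same label by chance, and the expected number was not computed. No pair consisted of 2 members, but members were 6.36% of all beetle cells, so few such pairs would occur at that share in any case.

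Members were first set against NBs II/INPs, the label that names type II neuroblasts and their progenitors with no newborn neurons. Members outnumbered NBs II/INPs cells in each of the 8 libraries and in the fly set. The number of members per NBs II/INPs cell was lowest in library 8 at 1.32, had a median of 2.18 and was highest in library 5 at 4.89, over the 7 libraries where it is defined. Library 3 had 2 members and no NBs II/INPs cell, so it gives no ratio. The mean was 2.57 ± 1.13 (SD, n = 7 libraries) and 2.78 ± 1.08 without library 8 (SD, n = 6).

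Library 8 thus lay below every other library with a ratio, although it held the most members. It had 726 members and 551 NBs II/INPs cells (95% interval of the ratio 1.18 to 1.47). Library 7, the next lowest, had 167 members and 81 NBs II/INPs cells (2.06, 95% interval 1.57 to 2.72), so the intervals did not overlap. Library 4 had 17 members and 8 NBs II/INPs cells, and its interval of 0.869 to 5.69 covered the ratio of library 8. At the other end, library 5 had 176 members and 36 NBs II/INPs cells (95% interval 3.40 to 7.21). That interval lay above those of libraries 6, 7 and 8 and overlapped those of libraries 1, 2 and 4.

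**Figure D1:**
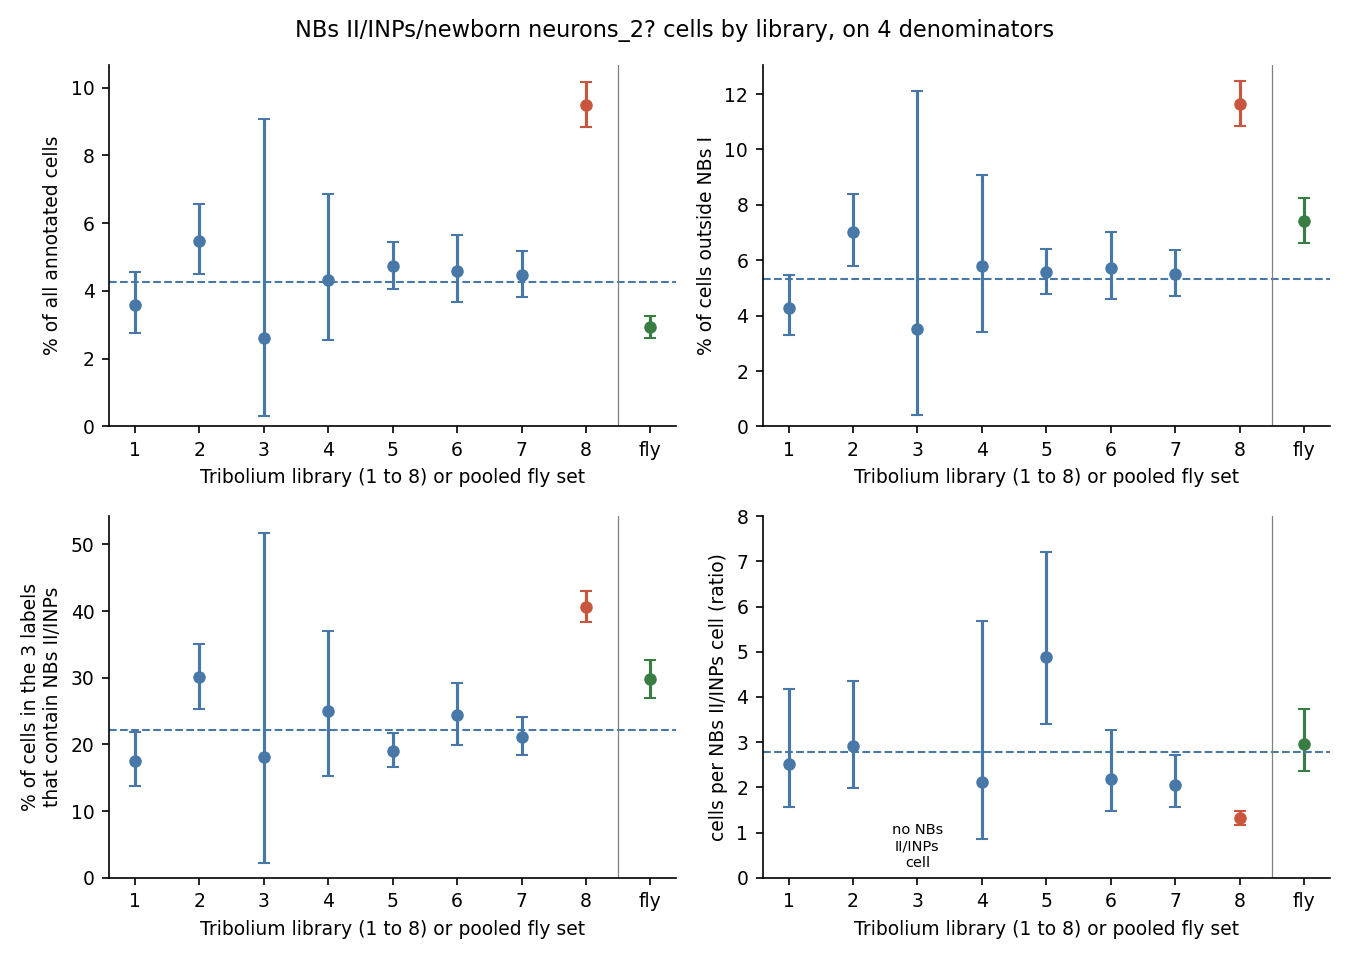
Cells with the label NBs II/INPs/newborn neurons_2? in each Tribolium library (1 to 8) and the pooled fly set, as % of all annotated cells, % of cells outside NBs I, % of the 3 labels that contain NBs II/INPs, and cells per NBs II/INPs cell. Points are values, bars exact 95% intervals, and dashed lines the mean of libraries 1 to 7 (without library 3 for the ratio). Library 8 is the highest library on the 3 shares and the lowest on the ratio, and the fly set at 2.93% lies below the dashed line for all cells but at 7.40% above it for cells outside NBs I.

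Members were next taken as a share of the 3 labels that contain NBs II/INPs, which also include NBs II/INPs/newborn neurons_1?, the first of the paired labels with a question mark. This share was lowest in library 1 at 17.5%, had a median of 22.8% and was highest in library 8 at 40.7%. The mean was 24.5% ± 7.77 (SD, n = 8) and 22.2% ± 4.54 without library 8 (SD, n = 7). Library 8, with 726 of 1785 cells, was at 1.83 times the mean of the others, and its interval of 38.4% to 43.0% overlapped that of library 3 alone, where 2 of 11 cells were members.

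The makeup of the 3 labels was reordered in library 8. In libraries 1 to 7, newborn neurons_1? was the most frequent of the 3, at 70.0% ± 8.23 (SD, n = 7), followed by the members and then NBs II/INPs at 7.77% ± 4.40 (SD, n = 7). In library 8 the members were the most frequent, NBs II/INPs followed at 30.9%, and newborn neurons_1? came last at 28.5%. Members and NBs II/INPs were therefore both higher there, and newborn neurons_1? was lower. The 3 labels together made up 28.6% of the cells outside NBs I in library 8, just under library 5 at 29.1%.

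Libraries 1 to 7 also differed among themselves in this share. Library 2 had 108 of 359 cells as members, 30.1% (95% interval 25.4% to 35.1%). Library 1 had 63 of 360 cells, 17.5% (13.7% to 21.8%), and library 5 had 176 of 922 cells, 19.1% (16.6% to 21.8%). The interval of library 2 thus lay above those of libraries 1 and 5, and above that of library 7 at 21.2% (18.4% to 24.2%).

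**Figure D2:**
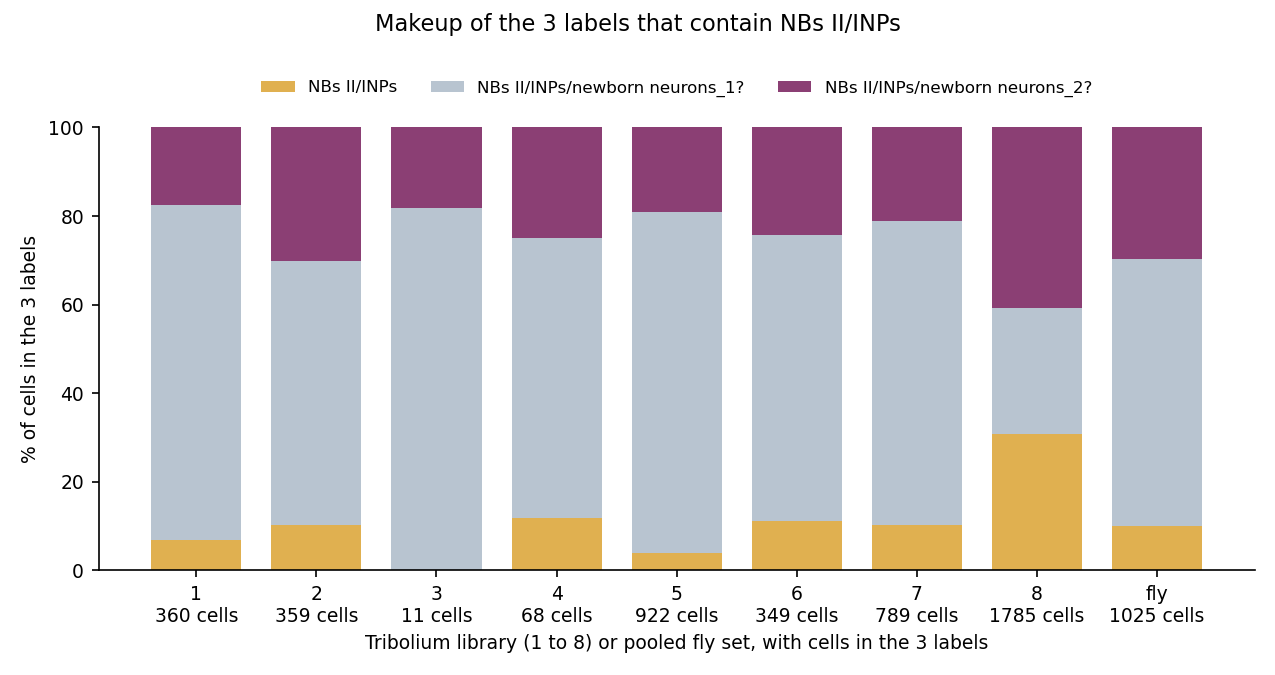
Stacked bars show the % of cells in each of the 3 labels that contain NBs II/INPs, for Tribolium libraries 1 to 8 and the pooled fly set, with the number of cells in the 3 labels under each bar. The upper segment, the described label, is 40.7% in library 8, from 17.5% to 30.1% in libraries 1 to 7, and 29.8% in the fly set.

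NBs I, the label with the name of type I neuroblasts, is the commonest fly label and takes a different share of each library, so members were also counted among the cells outside it. This share was lowest in library 3 at 3.51%, had a median of 5.65% and was highest in library 8 at 11.6%. The mean was 6.13% ± 2.46 (SD, n = 8) and 5.34% ± 1.13 without library 8 (SD, n = 7). Library 8 was 1.66 times as high as the next library, library 2 at 7.01% (95% interval 5.78% to 8.40%), and its interval of 10.8% to 12.5% overlapped that of library 3 alone. An exact permutation test of 1 library against 7 cannot give a p below 0.125, so none was run.

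A share can rise because other labels fall, so the number of members was set against each other label in turn. Members per GMC cell (GMC is the usual abbreviation of ganglion mother cell) were 0.248 in library 8 and 0.101 ± 0.0269 in the others (SD, n = 7), a 2.45-fold difference. Members per NBs I cell were 0.519 in library 8 and 0.218 ± 0.0667 in the others (SD, n = 7), 2.38-fold. Against both of these labels the excess in library 8 was thus of similar size.

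Against the remaining labels the ratio of library 8 to the others varied more widely. Members per newborn neurons_1? cell were 1.43 in library 8 and 0.327 ± 0.104 in the others (SD, n = 7), 4.37-fold. Members per plasmatocytes/embryonic hemocytes/macrophages cell, a label of blood cells, were 6.00 in library 8 and 0.990 ± 0.646 in the others (SD, n = 7). Members per cell of Midline_NBs, the label of neuroblasts of the midline, were 2.94 in library 8, inside the range of 1.47 to 4.00 in the others. Members per Sensory NBs cell were 2.05 in library 8, under the range of 3.94 to 17.0 in the 6 other libraries with such cells. The order of library 8 among the libraries thus depended on the label in the denominator: highest against NBs I, GMC, newborn neurons_1?, mesodermal and blood cells, lowest against NBs II/INPs and Sensory NBs, and inside the range against Midline_NBs.

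**Figure D3:**
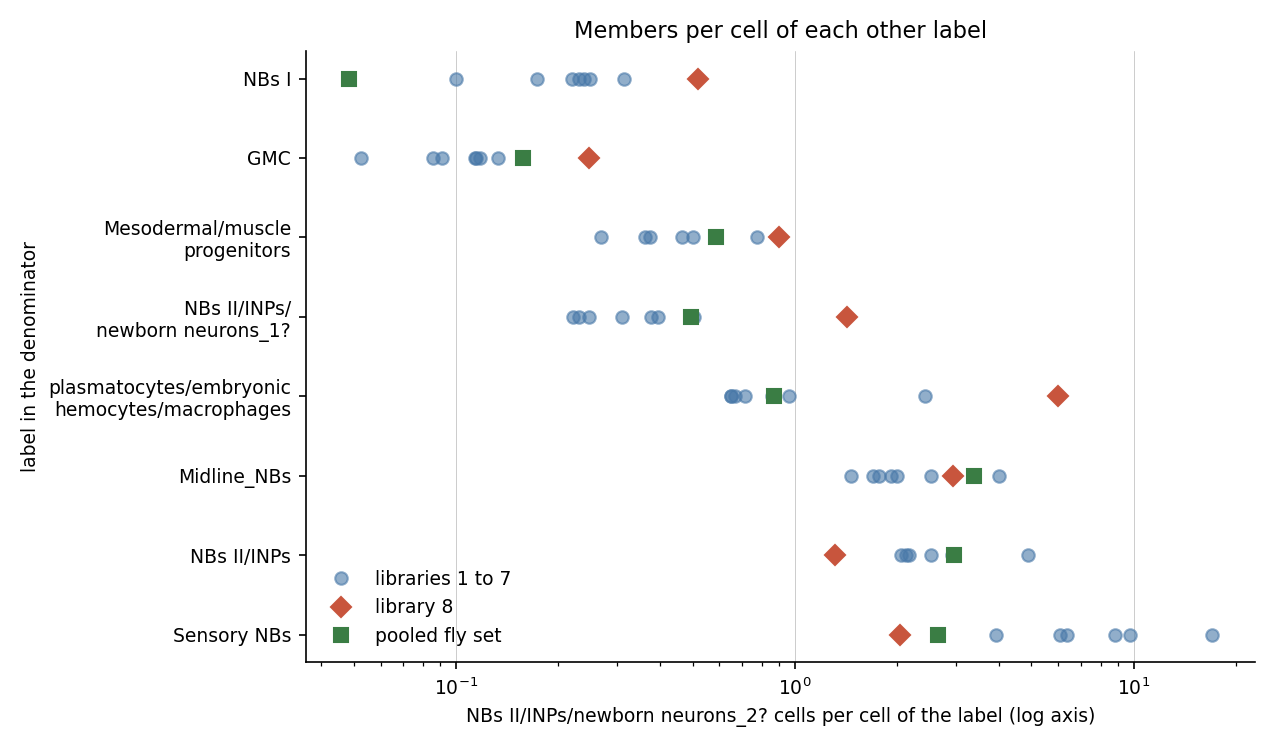
Number of cells with the label NBs II/INPs/newborn neurons_2? per cell of each other label (log axis), for libraries 1 to 7 (circles), library 8 (diamonds) and the pooled fly set (squares). Library 3 has no point for NBs II/INPs and Sensory NBs, where it has no cell, and PCGs is not plotted. Among the libraries, library 8 is the highest for newborn neurons_1? (1.43) and the lowest for NBs II/INPs (1.32), and the fly set lies below all libraries for NBs I (0.0484).

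The place of the label among the 10 labels was tested within beetle libraries, as the difference between its share of all cells and that of each other label. The tests were exact two-sided sign-flip permutation tests over libraries, with Benjamini-Hochberg adjustment over the 9 other labels, and the smallest p that 8 libraries allow is 0.0078. Members were rarer than GMC, NBs I and Mesodermal/muscle progenitors in each of the 8 libraries. The mean differences were 37.3 ± 5.51, 15.2 ± 4.93 and 4.96 ± 3.31 percentage points (SD, n = 8, exact permutation adjusted p = 0.010 for each). Without library 8 they were 38.5 ± 4.68, 16.2 ± 4.52 and 5.52 ± 3.13 (SD, n = 7, exact permutation adjusted p = 0.018 for each). Members were more frequent than Midline_NBs, NBs II/INPs and Sensory NBs in each of the 8 libraries (n = 8, exact permutation adjusted p = 0.010 for each). The remaining label, PCGs, whose meaning is not given here, was carried by 1 cell in library 1, 1 cell in library 7 and none of the other beetle cells. Its test could hardly have failed to pass and says nothing about the members.

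The difference from NBs II/INPs was 2.69 ± 0.627 percentage points (SD, n = 8) and ranged from 2.17 to 3.76, with a mean of 2.74 ± 0.655 without library 8 (SD, n = 7). Library 8 lay inside this range, although both labels were higher there, with 2.29 percentage points between them. Members were rarer than newborn neurons_1? in 7 of 8 libraries, with a mean difference of 7.76 ± 5.17 percentage points (SD, n = 8, exact permutation adjusted p = 0.018). The exception was library 8, where members were 2.85 percentage points more frequent, and without it the mean difference was 9.27 ± 3.12 (SD, n = 7, exact permutation adjusted p = 0.018). Without the 2 libraries of fewer than 500 cells the call was lost, at an exact permutation adjusted p of 0.070 (n = 6). The direction was kept: members minus newborn neurons_1? was -7.72 percentage points, against -7.76 on the same scale over 8 libraries. The smallest p that 6 libraries allow is 0.031.

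The nearest neighbour in the order was the blood cell label, and it could not be separated from the members. Members minus blood cells was 0.247 ± 3.47 percentage points (SD, n = 8, exact permutation adjusted p = 0.91), with members higher in libraries 4 and 8 and lower in the other 6. Without library 8 the difference was -0.849 ± 1.68 (SD, n = 7, exact permutation adjusted p = 0.22).

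**Figure D4:**
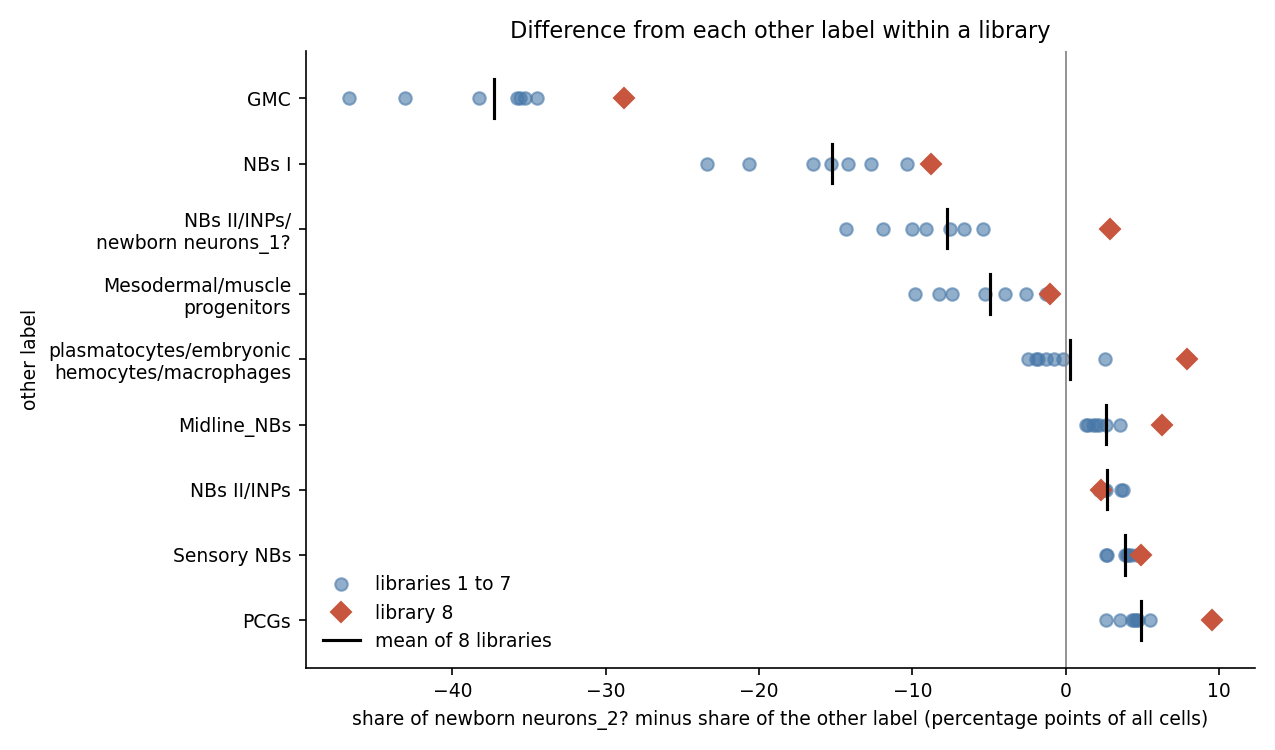
Share of NBs II/INPs/newborn neurons_2? minus the share of each other label, in percentage points of all cells, for libraries 1 to 7 (circles) and library 8 (diamonds), with the mean of 8 libraries as a black line. All points lie left of 0 for GMC, NBs I and Mesodermal/muscle progenitors, all lie right of 0 for the lower 4 labels, and library 8 alone lies right of 0 for newborn neurons_1?.

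Spread between libraries was set against counting error as the chi-square per degree of freedom, which is about 1 where cell counting alone separates the libraries. For the members among all cells it was 29.4 over 8 libraries and 1.42 without library 8. This fall was not particular to the members. Values went from 61.9 to 3.63 for NBs II/INPs, 61.5 to 15.6 for newborn neurons_1?, 55.4 to 1.32 for Sensory NBs and 34.4 to 3.30 for blood cells. GMC and Midline_NBs fell less, from 3.59 to 2.66 and from 7.92 to 6.19. NBs I and Mesodermal/muscle progenitors rose, from 9.55 to 11.1 and from 7.26 to 7.43. Among the 9 labels with at least 20 beetle cells, the 1.42 of the members was the second lowest value over libraries 1 to 7, after Sensory NBs. The other label with a question mark, newborn neurons_1?, had the highest value over libraries 1 to 7. For an equal relative spread this measure is larger for a label with more cells, so the order of labels also reflects their counts. Outside library 8, the members thus held a share of all cells of 4.25% ± 0.918 (SD, n = 7) with little spread beyond counting error. As a share of the 3 labels, a denominator that includes newborn neurons_1?, the value was 30.6 over 8 libraries and 4.07 without library 8.

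**Figure D5:**
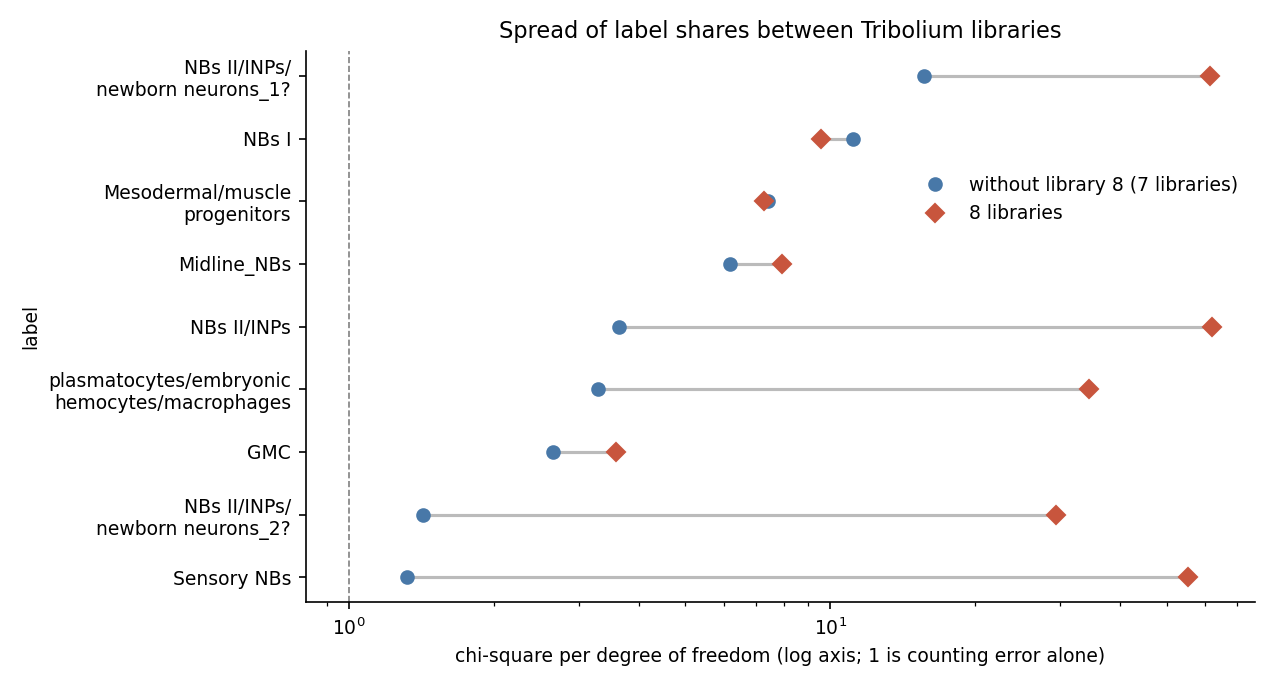
Chi-square per degree of freedom of each label against all other cells over 8 Tribolium libraries (diamonds) and without library 8 (circles), on a log axis, for the 9 labels with at least 20 Tribolium cells. The dashed line at 1 marks counting error alone. The described label moves from 29.4 to 1.42 when library 8 is left out, NBs II/INPs from 61.9 to 3.63 and Sensory NBs from 55.4 to 1.32.

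Whether the members rose and fell with another label over libraries was examined for 8 labels. Each share was taken among cells outside NBs I and outside the other label, so that neither of the compared labels was in the other's denominator. The remaining cells, GMC among them, stay in both denominators, and a change in them moves both shares the same way. For NBs I itself, each of the pair of shares was taken among all cells outside the other label. Over 8 libraries 3 labels passed by Pearson's r after Benjamini-Hochberg adjustment. NBs II/INPs had r = 0.97 (n = 8, exact permutation p = 0.0039, adjusted 0.031). Sensory NBs had r = 0.94 and Midline_NBs r = 0.71 (n = 8, exact permutation p = 0.013 and 0.014, adjusted 0.037 for both). None of them passed by Spearman's rho, at 0.81, 0.60 and 0.83 (n = 8, exact permutation p = 0.022, 0.13 and 0.015, adjusted 0.087, 0.30 and 0.087).

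For NBs II/INPs and Sensory NBs these values rested on a few libraries. When libraries 3 and 8 were left out, whose shares of the other label lay farthest from its median, r was 0.44 for NBs II/INPs and 0.064 for Sensory NBs (n = 6, exact permutation p = 0.39 and 0.92). For Midline_NBs the size of r did not depend on the extreme libraries, at 0.77 without libraries 1 and 5 (n = 6, exact permutation p = 0.11) and from 0.64 to 0.78 without each library in turn. Without library 8 alone, none of the 8 labels passed the adjustment. NBs II/INPs then had r = 0.77 (n = 7, exact permutation p = 0.042, adjusted 0.24), Midline_NBs r = 0.73 (exact permutation p = 0.061, adjusted 0.24) and Sensory NBs r = 0.55 (exact permutation p = 0.20, adjusted 0.53). With newborn neurons_1?, r was -0.64 over 8 libraries (exact permutation p = 0.10, adjusted 0.20) and -0.0050 without library 8 (exact permutation p = 0.99).

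In the fly set the direction of the species difference depended on the denominator. Members made up 2.93% of all fly cells (95% interval 2.61% to 3.27%), which was lower than in 7 of 8 beetle libraries. That fly interval overlapped those of 3 libraries, libraries 1, 3 and 4. Among cells outside NBs I the members made up 7.40% (305 of 4120 cells, 95% interval 6.62% to 8.25%), which was higher than in 7 of 8 beetle libraries. The library on the other side was library 3 for all cells and library 8 for cells outside NBs I. The label NBs I held 6305 fly cells, and the fly set had 0.0484 members per NBs I cell (95% interval 0.0430 to 0.0543), against 0.256 ± 0.123 in the beetle (SD, n = 8). The beetle mean was 5.29 times the fly value, or 4.51 times without library 8, and all 8 libraries lay above it.

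Outside NBs I the fly value lay 1.28 percentage points above the beetle mean and 2.06 above the mean without library 8. With all beetle cells pooled the difference of fly minus beetle turned to -0.373 percentage points. Library 8 held 54.0% of the beetle members. The fly interval overlapped those of 4 libraries, lay above those of libraries 1, 5 and 7, and lay below that of library 8. Members per GMC cell gave a similar order, at 0.158 in the fly (95% interval 0.139 to 0.178). This value was above those of libraries 1 to 7 and below that of library 8, but the fly interval overlapped those of libraries 2, 3, 4 and 6. Per Midline_NBs, mesodermal and newborn neurons_1? cell, the fly value was above 7, 6 and 6 of 8 libraries. Members per Sensory NBs cell went the other way, at 2.65 in the fly, below 6 of the 7 libraries with such cells. Members per blood cell were 0.869 in the fly, above 5 libraries and below 3.

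Within the 3 labels that contain NBs II/INPs, the fly set lay inside the range of the beetle libraries. Members made up 29.8% of these 1025 fly cells (95% interval 27.0% to 32.7%), above 6 libraries and below libraries 2 and 8. The fly interval overlapped those of 4 libraries, libraries 2, 3, 4 and 6. The fly set had 2.96 members per NBs II/INPs cell (305 to 103 cells, 95% interval 2.36 to 3.74), which was inside the range of the beetle libraries. It lay 0.388 above their mean, a difference that was 0.179 without library 8, 0.774 without library 5 and 1.23 with all beetle cells pooled. Its interval overlapped those of all libraries with a ratio except library 8. The order of the 3 labels in the fly, newborn neurons_1? at 60.2%, members at 29.8% and NBs II/INPs at 10.0%, was that of libraries 1 to 7.

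No p-value was computed between species, since the fly cells form a single value, and permuting it among the 8 libraries could reach no exact p under 0.111. Species, stage, isolation, library preparation and the transfer of labels between the species cannot be told apart here. Of the fly cells, 193 carried a barcode suffix and 10232 did not, and 64 barcodes occurred in both. Members made up 9 of the 193 cells (4.66%, 95% interval 2.15% to 8.67%) and 296 of the 10232 (2.89%, 2.58% to 3.24%), so the intervals overlapped. Among cells outside NBs I the values were 10.1% (95% interval 4.73% to 18.3%) and 7.34% (6.56% to 8.19%).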

How the data were processed

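The table analysed here, as the authors deposited it, gives each cell's barcode, label and species. Reads and count matrices were not analysed here. The submitters' processing notes name Cell Ranger and Scanpy, with neither version nor role, and the table's name speaks of label transfer between Drosophila and Tribolium. The transfer method, genome builds, cell filters and treatment of doublets after sequencing are not stated there. Per the labels' protocols, the sort discarded doublets by scatter. A transferred label depends on the reference, and the table gives no score per cell.

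Barcode suffixes 1 to 8 were matched to the replicate numbers in the sample titles. Cells were counted per label and library, and libraries were weighted equally. Ratios of counts have intervals from the exact binomial interval of one count in the sum of both. Sign-flip and correlation tests were exact. They were tested on simulated normal values of equal spread, which do not cover libraries of unequal size or an extreme library. All 10 labels are named, by rule. The members, tests and alternatives were chosen with earlier results of these data known. Counts and tests used scipy 1.17.1, pandas 2.3.3 and numpy 2.4.6 under Python 3.11.15, and figures matplotlib 3.10.9.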

Additional observations from a re-analysis of the deposited data

Results flagged for a closer look

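For 11 measures of the members, the distance from the extreme library to the next one was divided by the whole range, and 5 measures passed Dixon's 95% critical value. Each of the 5 was the value of library 8, which had been singled out with earlier results of these data known, so the flags add no independent support. They were the share of all cells at 9.50%, the share among cells outside NBs I at 11.6%, and the members per GMC cell at 0.248, per newborn neurons_1? cell at 1.43 and per blood cell at 6.00. Chance flags about 1 in 20 groups, but these measures share the same member count and the libraries differ in size, so the 5 are not independent. The share within the 3 labels that contain NBs II/INPs and the number of members per NBs II/INPs cell did not pass. With 7639 cells, library 8 is the largest, and the part of library size in these values was not tested.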

How the results depend on the processing

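Among the 4 measures of the members and their 4 species differences, 1 changed direction under another setting. The species difference among cells outside NBs I went from 1.28 to -0.373 percentage points when beetle cells were pooled, a setting in which library 8 counts for more. Under this setting the difference within the 3 labels went from 5.25 to 0.809 percentage points, that in members per NBs II/INPs cell from 0.388 to 1.23 and that in the share of all cells from -1.99 to -3.43. Leaving out each library in turn kept the sign of the species difference in the share of all cells (-2.32 to -1.33 percentage points), among cells outside NBs I (0.902 to 2.06), within the 3 labels (4.25 to 7.56) and in members per NBs II/INPs cell (0.179 to 0.774). Over the same settings, members per NBs II/INPs cell ranged from 2.19 to 2.78, and with 0.5 cells added to both counts, which lets library 3 enter, the mean was 2.85. Leaving out cells with shared barcodes or fly cells with a suffix moved each of these by less than 1 SD. The chi-square per degree of freedom ranged from 1.42 to 33.9 for all cells, from 1.86 to 34.9 outside NBs I and from 4.07 to 35.7 within the 3 labels, the lowest each time without library 8. Of the 9 paired differences, 8 passed, PCGs among them, without each library in turn, and 7 without libraries of fewer than 500 cells. The difference from blood cells ranged from -0.849 to 0.637. Of the 8 correlations, from 0 to 2 passed when a library was left out, and 0 without the small libraries, where fewer libraries enter and 1 had an unadjusted exact permutation p under 0.05. The Spearman counterpart passed for 0 labels in the full set. Correlations that changed sign had not passed: GMC from -0.064 to 0.46, NBs I from -0.28 to 0.18 and blood cells from -0.58 to 0.33 without each library, mesodermal cells -0.31 and NBs I 0.39 without the small libraries, and GMC -0.61 with shares of all cells. The cause was not tested. No paired analysis between groups was possible because all libraries belong to 1 group. Library 3, with 77 cells, has the widest intervals of the shares.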
